A study of Mus musculus with 2 samples.

Results

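The 7 genes described here, Isg15, Ifit1, Ifit3, Irf7, Oasl2, Zc3hav1 and Xaf1, are interferon-stimulated genes of the mouse, followed across the germ, immune and other somatic cells of the testis. They were found by symbol among 32285 genes and all 7 were present. They were chosen by readout, with earlier results of these data known, and Xaf1 and Zc3hav1 were selected on opposite ratios in spermatogonia, so every ratio between genotypes below is a description. Each genotype had 1 library. The knockout library came from testis of genotype Psma7 F/-;Stra8-Cre KI/+ and the control library from testis of genotype Psma7 F/+, both from male C57BL/6 mice at 13 days of age. Stra8-Cre recombines in germ cells from the spermatogonial stage on, and the F/- genotype leaves every cell of the knockout animals, somatic cells included, with a null copy. A Cre allele is not given for the control, and the number of animals in a library is not given for either. Psma7 encodes a subunit of the 20S core of the proteasome.

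Interferons are secreted proteins that alert cells to infection. Type I interferons bind the receptor of IFNAR1 and IFNAR2, type II interferon (interferon gamma) binds that of IFNGR1 and IFNGR2, and the JAK kinases behind these receptors activate transcription factors. Such factors bind the interferon-stimulated response element (ISRE) or the gamma-activated sequence (GAS) in promoters. The genes switched on in this way block viruses at many steps, and many of them are also expressed at a low level without infection. Of the genes described here, Isg15 encodes a ubiquitin-like modifier, Ifit1 a protein that binds foreign RNA and Ifit3 a protein of the same family. Irf7 is the factor that amplifies type I interferon, and Oasl2 belongs to the oligoadenylate synthetase family. Zc3hav1 encodes ZAP, which binds CpG-rich viral RNA and directs its decay. Xaf1 encodes a partner of the caspase inhibitor XIAP and promotes cell death.

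The promoters of the members differ in the ISRE. Its core was searched as TTTCNNTTTC and the GAS as TTCNNNGAA, on both strands, in the 250 bases before each start in RefSeq (GRCm38.p6), taking 1 window a gene; overlapping ISRE matches were each counted, and no member held both motifs. The ISRE core was found in 3.04% of 27025 promoters and the GAS in 7.18%. Of the 7 members all matched a window, and Isg15, Ifit1 and Ifit3 hold the ISRE core, with 3, 2 and 2 matches. Oasl2, Irf7, Xaf1 and Zc3hav1 have no match of either motif in this window. Among the 78 other interferon-stimulated genes listed, 65 had a window, and 28 of them (43.1%) held the core and 10 (15.4%) the GAS. The bases before the start are shown for the 3 genes with matches, and for Xaf1 and Zc3hav1 as the genes the germ cell results turn on, 5′ to 3′ on the strand of the gene, with ISRE cores in capitals. A match is a run of letters and not a measured binding site.
Isg15, chr4:156200819-156200918: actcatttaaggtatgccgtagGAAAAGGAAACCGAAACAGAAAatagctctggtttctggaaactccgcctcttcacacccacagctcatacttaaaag
Ifit1, chr19:34640779-34640888: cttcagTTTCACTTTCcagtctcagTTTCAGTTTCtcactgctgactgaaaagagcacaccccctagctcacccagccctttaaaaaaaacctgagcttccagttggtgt
Ifit3, chr19:34583369-34583528: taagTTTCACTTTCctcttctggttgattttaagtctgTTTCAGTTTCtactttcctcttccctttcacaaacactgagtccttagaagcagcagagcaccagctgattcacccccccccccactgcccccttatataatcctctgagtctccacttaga
Xaf1, chr11:72301529-72301628: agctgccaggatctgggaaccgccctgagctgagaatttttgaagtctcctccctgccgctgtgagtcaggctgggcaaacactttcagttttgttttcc
Zc3hav1, chr6:38354604-38354703: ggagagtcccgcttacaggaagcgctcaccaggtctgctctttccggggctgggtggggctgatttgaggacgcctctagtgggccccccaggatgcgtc
Isg15, Irf7 and Zc3hav1 lie on the minus strand and Ifit1, Ifit3, Oasl2 and Xaf1 on the plus strand. The genes themselves span chr4:156199424-156200818 for Isg15, chr19:34640871-34650009 for Ifit1, chr19:34583531-34588731 for Ifit3, chr7:141262706-141266481 for Irf7, chr5:114896936-114912234 for Oasl2, chr6:38305286-38354603 for Zc3hav1 and chr11:72301629-72313733 for Xaf1, all protein coding in GENCODE M21 (mm10).

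After filtering, 10589 knockout cells (median 5395 UMIs) and 10737 control cells (median 8046 UMIs) were kept; 28 cell barcodes occurred in both. A UMI is a tag that counts 1 captured RNA molecule. Levels are UMIs of a gene scaled to a class total of 1000000 UMIs (CPM), and ratios are log2 of knockout over control with 0.5 added to each count. The 95% intervals of levels, shares and ratios are exact and cover counting error only, not the spread between animals. Those of list medians are read from the ranked ratios of the genes in the list, treat genes as independent, and do not cover that spread either. Psma7 itself stood at 94.4 CPM in undifferentiated spermatogonia of the knockout library, against 245 CPM in the control. In Sertoli cells it was at 84.5 CPM in the knockout library and 230.2 CPM in the control. The counted 3′ tag may lie outside the deleted part of the gene, so these values do not count intact transcripts.

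Undifferentiated spermatogonia include the stem cells of the germ line. This class had 284 knockout and 514 control cells with median depths of 13468 and 13321 UMIs, and all 15 of its markers were present, summed at 1464 CPM in knockout and 1604 CPM in control cells. Xaf1 rested there on 376 UMIs in the knockout library and on 138 in the control. That is 84.7 CPM (interval 76.4 to 93.7) in knockout cells against 17.8 CPM (14.9 to 21.01) in control cells, a log2 ratio of 2.25 (1.97 to 2.54). Of 14993 genes with at least 30 UMIs in both libraries together, 78, Xaf1 among them, had a ratio as high or higher. Xaf1 was selected on its ratio in spermatogonia, so nothing is read from this rank. Oasl2 went the other way, with 92 UMIs and 20.7 CPM (16.7 to 25.4) in knockout cells against 354 UMIs and 45.6 CPM (41.0 to 50.6) in control cells, a log2 ratio of -1.13 (-1.49 to -0.80). Zc3hav1 was at 10.8 CPM in knockout cells (48 UMIs, 7.97 to 14.3) and at 9.80 CPM in control cells (76 UMIs, 7.72 to 12.3), a log2 ratio of 0.15 whose interval, -0.41 to 0.68, includes no change. A ratio opposite to that of Xaf1 was therefore not seen for Zc3hav1 in undifferentiated cells. In the differentiating class described below Zc3hav1 was lower in the knockout library. Xaf1 had a ratio of 0.21 (-0.53 to 0.81) in that class, which includes no change. Opposite ratios were seen with all spermatogonia together, 2.26 for Xaf1 and -1.19 for Zc3hav1. The other 4 genes were close to silent. Isg15 had 1 UMI in knockout and 8 in control cells, Irf7 had 1 and 0, Ifit3 had 2 and 0, and Ifit1 had 0 and 1. A count of 0 allows up to 0.676 CPM in the knockout library and 0.387 CPM in the control. Among all genes measured in this class, 5.93% were at least 2-fold higher and 3.14% at least 2-fold lower in the knockout library, beside 1 of 3 measured members in each direction. Since these ratios chose members, nothing is read from those counts. Macrophage markers summed to 65.1 CPM in knockout and 30.4 CPM in control cells of this class, with 10 and 9 of 10 markers seen, and lymphocyte markers to 10.4 and 4.90 CPM. Sertoli markers summed to 270.2 CPM in knockout and 126 CPM in control cells, and interstitial stromal markers to 157 and 105 CPM. The part of these in the ratios was not tested. In macrophages themselves Xaf1 was at 10.9 and 14.97 CPM.

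The Xaf1 UMIs lay in few cells. At least 1 Xaf1 UMI was seen in 39 of 284 knockout cells (13.7%, 9.95 to 18.3) and in 36 of 514 control cells (7.004%, 4.95 to 9.56). Peritubular myoid cells, the class with the lowest Xaf1 level, had it in 1.42% of knockout and 1.17% of control cells at medians of 6939 and 4700 UMIs, and free RNA in the suspension would account for 0.527% and 0.643% of undifferentiated spermatogonia. Thinned to 1000 UMIs a cell, the shares in undifferentiated spermatogonia were 4.57% in the knockout library and 1.25% in the control. Counts of 5 or more UMIs occurred in 15 knockout cells, which together held 343 of the 376 UMIs (91.2%). In the control 10 such cells held 103 of 138 (74.6%). The highest knockout cell alone held 92 UMIs and the next 39, 35, 31 and 30, whereas the highest control cells held 24, 16, 15, 12 and 9. Such cells made up 5.28% of the class in the knockout library and 1.95% in the control. Their median depth was 12168 UMIs in the knockout library, where the class had 13468, and 20349 UMIs in the control, where the class had 13321. Outside these cells Xaf1 stood at 7.88 CPM in the knockout library and 4.65 CPM in the control, a log2 ratio of 0.76 (0.03 to 1.49), so that the larger part of the difference rested on the 15 and 10 cells. Because UMIs crowd into cells in this way, the counting interval of the ratio over all cells understates its error, even within a library.

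**Figure D1:**
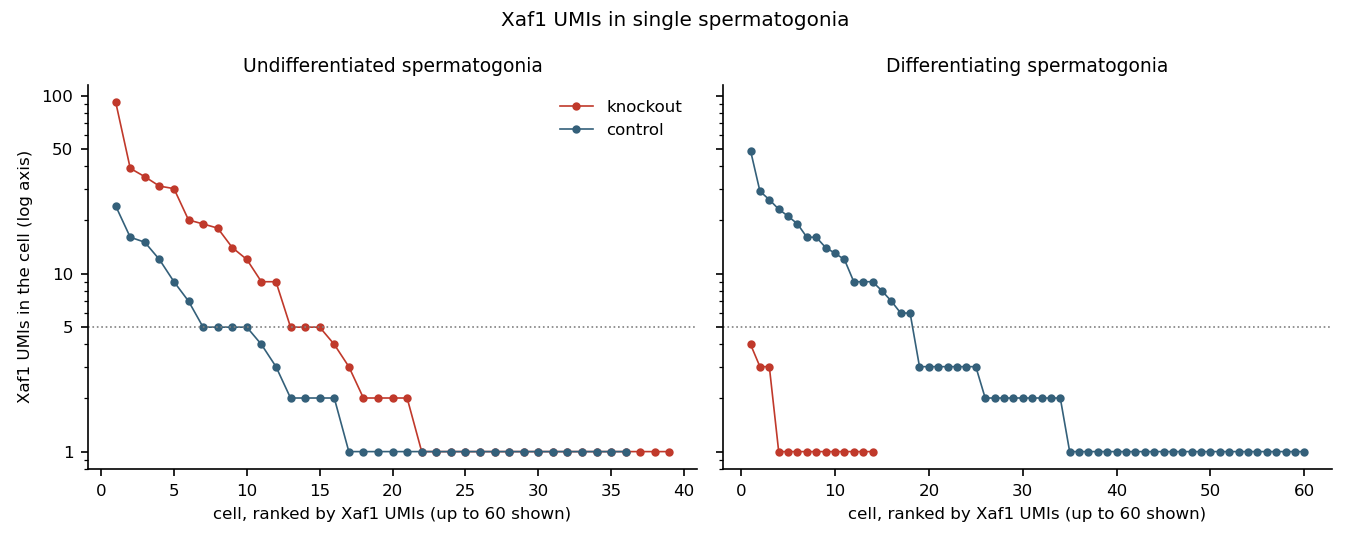
Xaf1 UMIs in single spermatogonia, cells ranked from the highest down within each class and library (horizontal axis, rank; vertical axis, UMIs in the cell, log scale; dotted line, 5 UMIs; up to 60 cells with a UMI shown). Knockout undifferentiated cells reach 92 UMIs and control ones 24, while among differentiating cells the control, with 2011 cells, reaches 49 and the knockout library, with 116, reaches 4.

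Xaf1-rich cells occurred in the control library too. Control differentiating spermatogonia held 18 cells with 5 or more Xaf1 UMIs, the highest at 49, which together carried 292 of 398 UMIs, and control early meiotic cells held 1 cell with 41 of 79. Those 18 cells were 0.895% of the control class. Knockout differentiating spermatogonia had 0 such cells of 116, which allows a share of up to 2.59%, so a lower share than in the control was not detectable with this number of cells. No Sertoli, Leydig or peritubular myoid cell of either library had 5 or more; the highest there had 4. The Xaf1-rich undifferentiated spermatogonia carried few UMIs of the other members. The 15 knockout cells held 6 UMIs of the other 6 genes in all, and the 10 control cells held 7. By contrast, a stromal cell of the knockout library had 5 Xaf1 UMIs together with 49 UMIs of the other members, 19 of them Ifit3. Split by Gfra1, the GDNF receptor of stem cells, Xaf1 stood at 74.9 CPM in knockout and 19.1 CPM in control cells with a Gfra1 UMI (222 and 329 cells). Without one it stood at 154 CPM in the knockout library and 14.8 CPM in the control (62 and 185 cells). Both sides of this split thus had the higher level in the knockout library. Xaf1 was selected on its ratio in spermatogonia and its UMIs lay in few cells, so the split gives no separate support.

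Differentiating spermatogonia are the next stage, on the way to meiosis. The class had 116 knockout and 2011 control cells, with all 9 of its markers present in both libraries, summed at 642 CPM in knockout and 895 CPM in control cells. Median depth differed, at 4993 UMIs in knockout and 12330 UMIs in control cells. Undifferentiated markers summed to 461 CPM in knockout and 268 CPM in control cells of this class, and early meiotic markers to 1182 and 1935 CPM. The libraries also filled it with different clusters. Cluster 7 held 11 knockout and 1012 control cells. Cluster 11 held 48 and 771, and cluster 21, cells with few UMIs (medians of 1693 and 1904), held 57 and 228. Over the whole class Zc3hav1 was at 5.01 CPM in the knockout library, on 7 UMIs, and at 24.7 CPM in the control, on 741 UMIs, a log2 ratio of -2.21 (-3.62 to -1.25). In control germ cells the Zc3hav1 level differed by stage. It was 9.80 CPM in undifferentiated cells, 14.2 CPM in cluster 11 and 37.8 CPM in cluster 7. Control early meiotic cells, a class with 0 knockout cells, were at 25.3 CPM, with 36.2 CPM in 1 of their clusters and 9.80 CPM in the other. Within cluster 11 Zc3hav1 was at 5.86 CPM in the knockout library (2.35 to 12.1) and 14.2 CPM in the control (12.4 to 16.2), a log2 ratio of -1.18 (-2.61 to -0.21) that rests on 7 knockout UMIs in 48 cells. Without cells of 5 or more Zc3hav1 UMIs the ratio was -0.94 (-2.37 to 0.03), which includes no change. Over all spermatogonia it was at 9.42 CPM against 21.7 CPM in the control, a log2 ratio of -1.19 (-1.62 to -0.81), a value that carries the difference in stages. How much of it is stage and how much genotype cannot be told apart with these cells.

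Oasl2 followed the opposite course over control stages. It was at 45.6 CPM in undifferentiated cells, 13.4 CPM in cluster 11, 0.741 CPM in cluster 7 and 0.371 CPM in early meiotic cells. In the knockout library it was at 20.7 CPM in undifferentiated cells and 25.9 CPM in cluster 11, with overlapping intervals, so the lower level of cluster 11 was not seen there. Over the differentiating class Oasl2 was at 22.9 CPM in knockout and 7.51 CPM in control cells, a log2 ratio of 1.63 (1.03 to 2.15), and within cluster 11 the ratio was 0.97 (0.36 to 1.496). Without the 2 cells of each library with 5 or more Oasl2 UMIs the ratio in cluster 11 was 0.54 (-0.23 to 1.18), which includes no change. Unlike Xaf1, Oasl2 was spread over many cells, 62 of 284 undifferentiated cells in the knockout library (21.8%) and 202 of 514 in the control (39.3%), with at most 5 and 6 UMIs in a cell; thinned to 1000 UMIs the shares were 2.22% and 4.21%, and free RNA would account for 0.247% and 0.585%. Xaf1 in cluster 11 was at 15.1 CPM in the knockout library and 22.9 CPM in the control, a ratio of -0.57 (-1.38 to 0.08). Without the 17 control cells of 5 or more UMIs it was at 15.1 CPM in the knockout library and 5.15 CPM in the control, so the direction in cluster 11 turned on those cells. In the differentiating class 14.4% of all genes were at least 2-fold higher and 4.27% at least 2-fold lower in the knockout library, beside Oasl2 higher and Zc3hav1 lower among 3 measured members. Macrophage markers, 9 of 10 with UMIs in knockout and 10 of 10 in control cells, summed to 45.8 CPM and 21.5 CPM in this class. Sertoli markers summed to 299.7 CPM in knockout and 114 CPM in control cells, and interstitial stromal markers to 157 and 79.7 CPM. The part of these in the ratios was not tested.

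**Figure D2:**
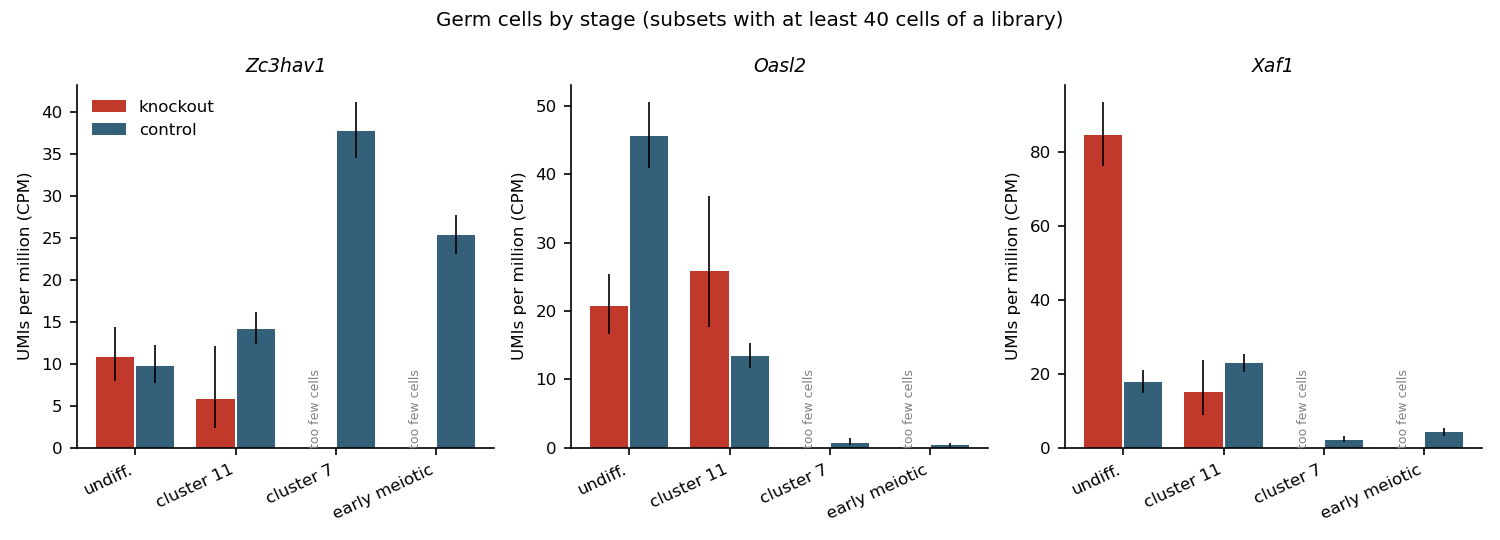
Zc3hav1, Oasl2 and Xaf1 in germ cells by stage (vertical axis, CPM from UMIs summed over cells; lines, exact Poisson 95% intervals; knockout bars left of control bars; where the knockout library had fewer than 40 cells no bar is drawn). Control Zc3hav1 is at 9.80 CPM in undifferentiated cells and 37.8 CPM in cluster 7, control Oasl2 at 45.6 CPM and 0.741 CPM.

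Macrophages and lymphocytes are the cells that usually make and answer interferons. The macrophage class held 86 knockout and 87 control cells, with all 10 macrophage markers present and summed at 18147 CPM in the knockout library and 18319 CPM in the control. Only Isg15 and Zc3hav1 reached 30 UMIs, and both intervals include no change. Isg15 was at 18.4 CPM in the knockout library (22 UMIs) and 10.3 CPM in the control (11 UMIs), a log2 ratio of 0.81 (-0.27 to 2.03). Zc3hav1 was at 93.7 CPM (112 UMIs) against 85.1 CPM (91 UMIs) in the control, a ratio of 0.14 (-0.27 to 0.55). Ifit3 was at 9.20 CPM in knockout and 14.97 CPM in control macrophages, Xaf1 at 10.9 and 14.97 CPM, Oasl2 at 8.37 and 11.2 CPM, Irf7 at 5.02 and 8.42 CPM, and Ifit1 at 3.35 and 2.81 CPM, each on 16 UMIs or fewer a library. At 22 UMIs or fewer, a 2-fold difference was not detectable for the genes other than Zc3hav1.

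Lymphocytes, 44 knockout and 32 control cells, were too few for a ratio. Cd3g, a chain of the T cell receptor complex, was seen in 40 of 44 and 30 of 32 cells, Nkg7, a granule gene of T and NK cells, in 35 and 26, and the B cell gene Cd79a in 3 and 2. They had the most Zc3hav1 of the classes compared, 488 CPM in the knockout library (252 UMIs, 429 to 552) and 378 CPM in the control (141 UMIs, 318 to 446), seen in 84.1% and 81.3% of cells. Isg15 was at 61.9 CPM in knockout and 26.8 CPM in control lymphocytes, but 17 of the 32 knockout UMIs came from a single cell. RNA of other cell types was common in this class: Sertoli markers summed to 1055 CPM in the knockout library and 1565 CPM in the control, and markers of germ cells of any stage to 63.9 and 999.5 CPM. Free RNA could make up at most 17.4% of their UMIs in the knockout library and 48.2% in the control. The part of these in the levels was not tested.

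Most of the interferon RNA also lay in lymphocytes. Ifng, the type II interferon, had 169 UMIs in all knockout cells, 153 of them (90.5%) in lymphocytes, and 156 UMIs in all control cells, 149 of them (95.5%) in lymphocytes. Its level there was 296 CPM in the knockout library (251 to 347) and 399 CPM in the control (338 to 469), and it was seen in 29 of 44 and 20 of 32 cells. The 12 type I interferons listed had 12 UMIs in all cells of the knockout library and 14 in the control, none of them in lymphocytes, and Ifnb1 had 0 in both. Interferon lambda 3, Ifnl3, had 17 and 5 UMIs. Of 15 interferons, 9 in the knockout library and 10 in the control had no UMI in any cell. Zc3hav1 was lower in lymphocytes with an Ifng UMI, 295 CPM in the knockout library and 280 CPM in the control, than in those without one, 1124 CPM (15 cells) and 560 CPM (12 cells). Its UMIs were crowded, however. Lymphocytes with 5 or more Zc3hav1 UMIs, 18 of 44 knockout cells, held 210 of 252 UMIs. In the control 7 of 32 cells held 101 of 141. The difference thus rests on few cells and was not tested.

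Endothelial cells, which line vessels, had the highest Isg15 of the classes with at least 50 cells, at 48.2 CPM in the knockout library (44 UMIs in 64 cells) and 48.6 CPM in the control (89 UMIs in 88 cells), a log2 ratio of -0.01 (-0.57 to 0.52). The next class, macrophages, did not overlap them in interval in either library. Members occurred together in endothelial cells. At least 5 of the 7 were seen in 3 of 64 knockout cells, all with exactly 5, and in 12 of 88 control cells, 5 with 5 and 7 with 6. Macrophages had 1 cell with 5 members in each library. No undifferentiated spermatogonium of either library had more than 3, but Isg15, Ifit1, Ifit3 and Irf7 were close to silent in that class. Depth differed as well. Endothelial cells with 5 or more Isg15 UMIs had medians of 46188 UMIs in the knockout library and 59173 in the control. The class medians were 6182 and 8220 UMIs. Isg15 was nearly absent from Sertoli cells, at 0.283 CPM in the knockout library and 0.520 CPM in the control, and was seen in 0.157% and 0.270% of them. Among the same classes Irf7 stood highest in endothelial cells too, at 9.86 and 10.9 CPM, but the next classes overlapped it: Leydig cells at 7.87 CPM in the knockout library and macrophages at 8.42 CPM in the control. Ifit3 was highest in macrophages, with interstitial stromal cells next and overlapping in interval, where it was at 4.90 CPM in the knockout library (147 UMIs) and 7.32 CPM in the control (121 UMIs), a ratio of -0.58 (-0.94 to -0.22). Irf7 was also lower in knockout stromal cells, at 3.33 CPM against 6.05 CPM in the control (100 UMIs each), a ratio of -0.86 (-1.27 to -0.44). In contrast it was higher in knockout Leydig cells, at 7.87 CPM against 4.19 CPM in the control, with a ratio of 0.88 (0.09 to 1.78).

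**Figure D3:**
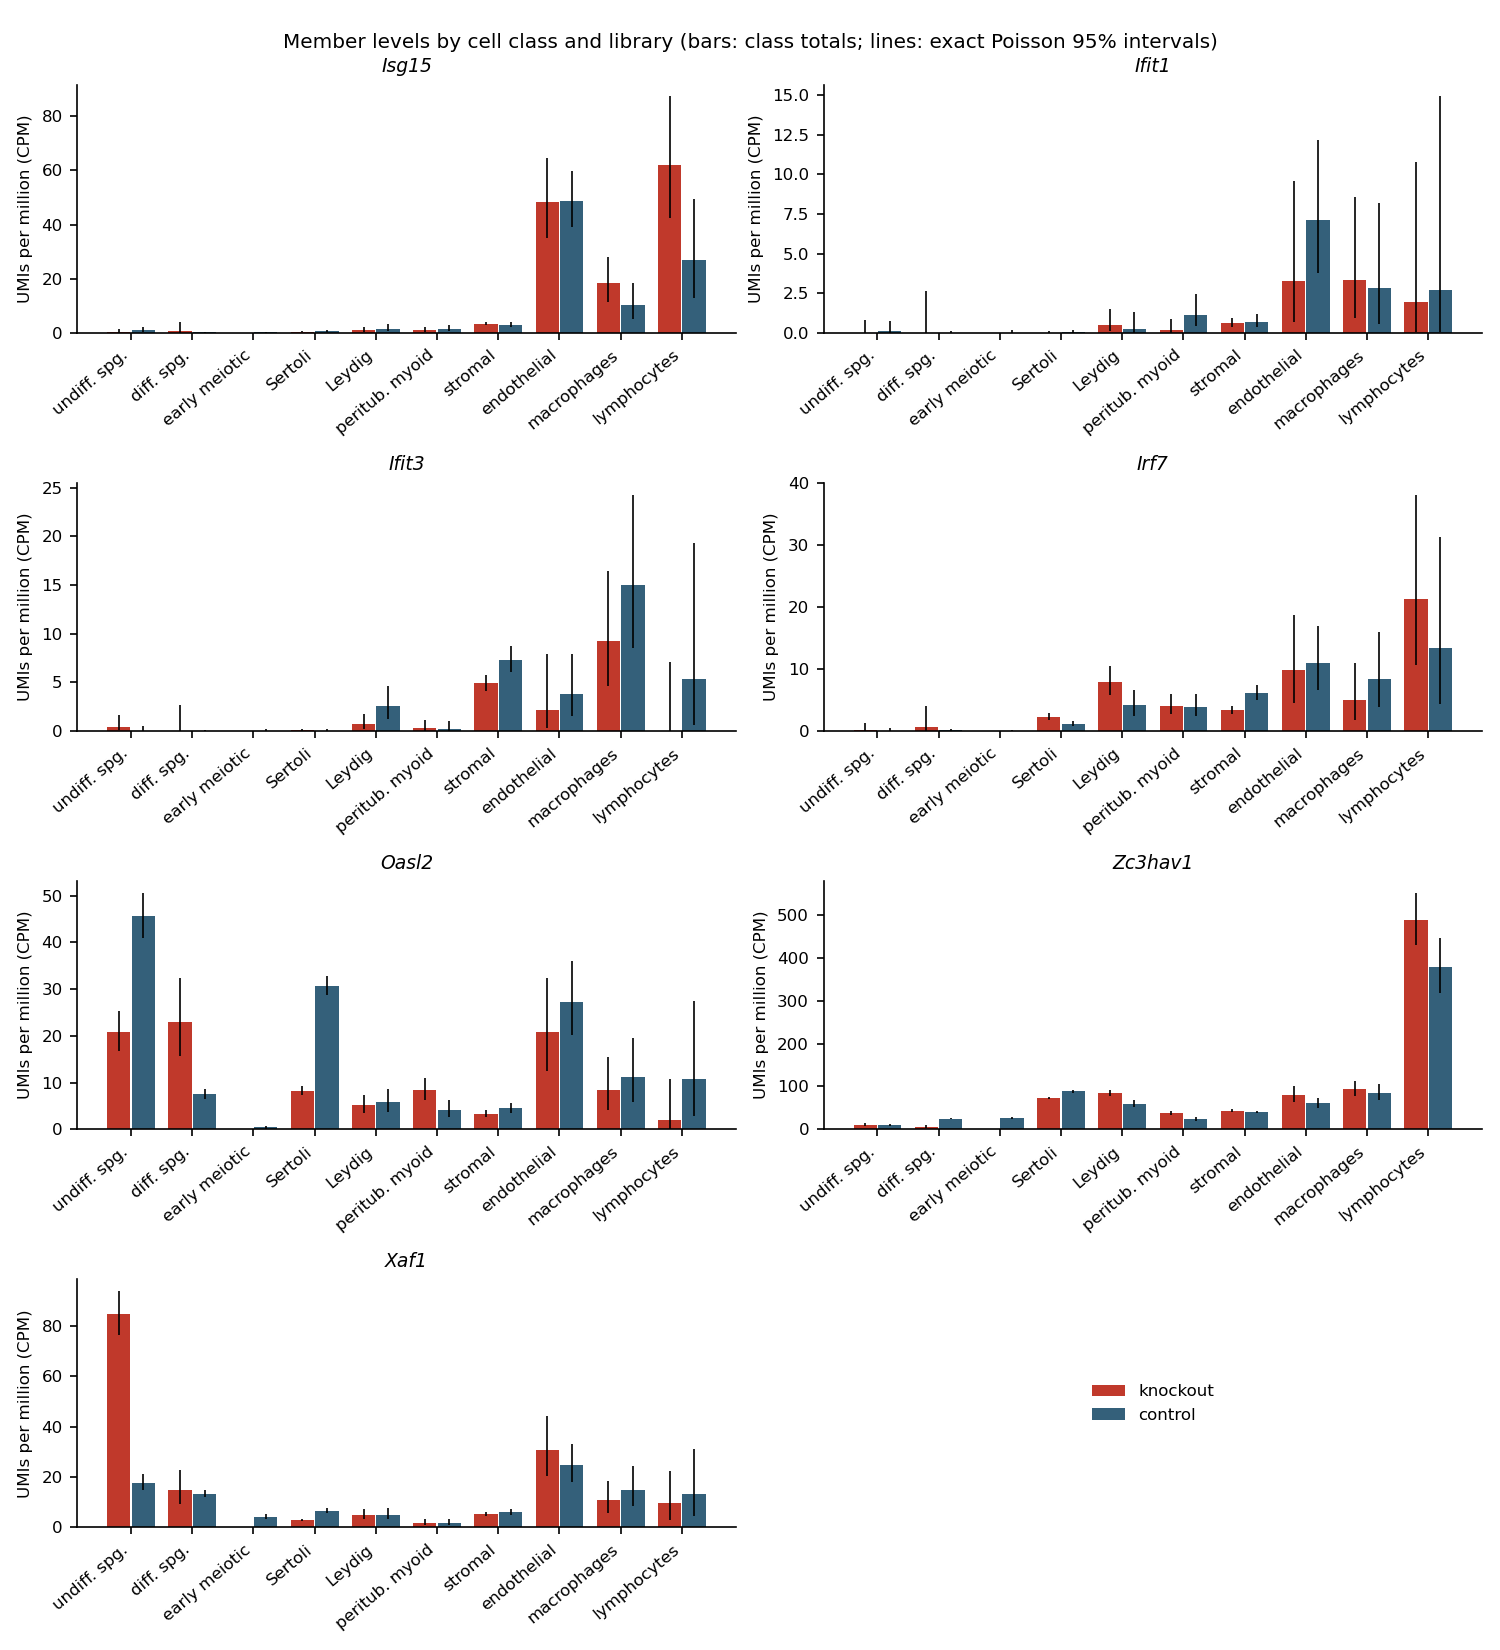
Level of each gene in 10 cell classes (vertical axis, CPM from UMIs summed over the cells of a class; lines, exact Poisson 95% intervals; knockout bars left of control bars; the scale differs between panels; early meiotic cells were found in the control library only). Isg15, Ifit1, Ifit3 and Irf7 are near 0 in germ cells, Zc3hav1 is highest in lymphocytes at 488 and 378 CPM, and Xaf1 is highest in knockout undifferentiated spermatogonia at 84.7 CPM.

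Sertoli cells, the somatic support cells of the tubule, were 6374 in the knockout library and 3704 in the control and gave the most UMIs. Zc3hav1 was their most abundant member, at 73.0 CPM in knockout and 88.8 CPM in control cells, a log2 ratio of -0.28 (-0.36 to -0.20). Oasl2 was at 8.21 CPM in the knockout library (319 UMIs, seen in 4.20% of cells) and 30.6 CPM in the control (884 UMIs, 17.2% of cells), a ratio of -1.90 (-2.09 to -1.71). Thinned to 1000 UMIs a cell, Oasl2 was seen in 0.833% of knockout and 3.34% of control Sertoli cells. Xaf1 was at 2.93 CPM in knockout and 6.73 CPM in control Sertoli cells, a ratio of -1.19 (-1.54 to -0.86), opposite in sign to that of undifferentiated spermatogonia, and Irf7 at 2.29 and 1.18 CPM, a ratio of 0.95 (0.37 to 1.57). Knockout Sertoli cells lay mostly in clusters 0, 2, 3 and 6 and control ones in clusters 3, 8, 9 and 13. In the 2 clusters with over 250 cells of both libraries the Oasl2 difference was still present: 6.82 CPM in knockout against 16.0 CPM in control cells of cluster 3, and 5.30 against 14.4 CPM in cluster 14. Xaf1 was at 1.64 and 2.46 CPM in cluster 3, with overlapping intervals, and at 2.96 and 9.39 CPM in cluster 14. Irf7 was at 3.41 CPM in knockout and 1.72 CPM in control cells of cluster 3, a ratio of 0.91 (-0.27 to 2.44), but at 0.312 and 1.34 CPM in cluster 14, a ratio of -1.88 (-5.41 to 0.29) on 2 and 7 UMIs. Its direction in Sertoli cells was thus not the same in both clusters. Zc3hav1 had ratios of -0.39 (-0.58 to -0.19) in cluster 3 and -0.10 (-0.27 to 0.07) in cluster 14. Markers of other cells also differed in the Sertoli class: interstitial stromal markers summed to 163 CPM in knockout and 84.8 CPM in control cells, erythroid markers to 53.1 and 4.47 CPM, and markers of germ cells of any stage to 15.6 and 164 CPM. Their part in these ratios was not tested. Among all genes in Sertoli cells 8.19% were at least 2-fold higher and 4.1% at least 2-fold lower in the knockout library, beside 0 and 2 of 4 measured members. In peritubular myoid cells Oasl2 was at 8.31 CPM in knockout and 4.07 CPM in control cells, a ratio of 1.01 (0.29 to 1.82), where 1.83% of all genes were at least 2-fold higher and 1.79% at least 2-fold lower. In Leydig cells Zc3hav1 was at 83.7 CPM in knockout and 59.4 CPM in control cells, a ratio of 0.49 (0.27 to 0.72), and without cells of 5 or more Zc3hav1 UMIs the ratio was 0.10 (-0.16 to 0.36). In peritubular myoid cells it was at 36.7 and 24.1 CPM, a ratio of 0.61 (0.29 to 0.93), with 39 of 234 knockout UMIs in a single cell. In interstitial stromal cells Zc3hav1 was at 43.7 CPM in knockout and 39.7 CPM in control cells, a ratio of 0.14 (0.00 to 0.28), which turned to -0.19 (-0.33 to -0.04) without cells of 5 or more Zc3hav1 UMIs. Oasl2 thus lay lower in the knockout library in Sertoli cells and undifferentiated spermatogonia and higher in peritubular myoid cells and, with the limit given above, cluster 11.

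**Figure D4:**
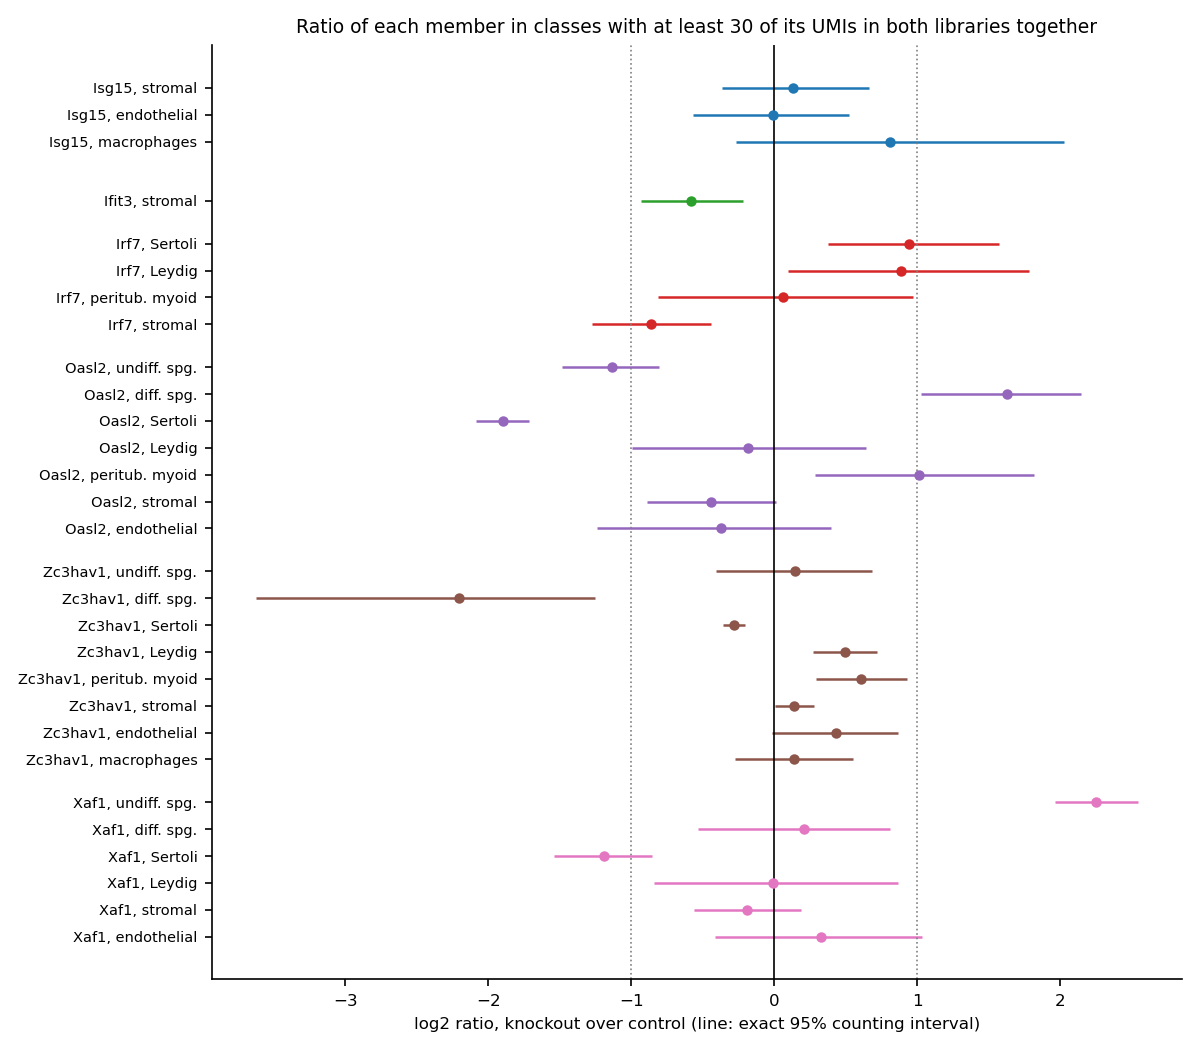
Log2 ratio of knockout over control (horizontal axis) for the 29 pairs of gene and class with at least 30 UMIs in both libraries together; lines are exact 95% counting intervals and dotted lines mark 2-fold. At or past 2-fold lie 7 pairs, 3 of them higher (Xaf1 in undifferentiated spermatogonia, Oasl2 in differentiating spermatogonia and peritubular myoid cells). The shares of all genes past 2-fold in the classes of these pairs are given in the text.

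Over the 17 pairs of class and library with at least 50 cells, Isg15 and Ifit1 had the most similar profiles of any 2 members, with a Pearson r of 0.96 on log2(CPM + 1), and Irf7 followed both at 0.74 and 0.75. Xaf1 and Zc3hav1 had an r of -0.27, and Oasl2 was closest to Xaf1 at 0.62. These are descriptions over profiles that share libraries and differ in depth. Ifit1 was near the floor, with 30 UMIs in all knockout cells and 38 in all control cells. No class of a library held more than 18 of them, so the r values of Ifit1 rest on few counts. Among all genes with at least 100 UMIs, those most like Isg15 were Ifi47 (0.97), Sp100 (0.96) and Gbp5 (0.96), all of them interferon-induced genes, and those most like Ifit1 were Isg15 (0.96), Tnfaip2 (0.96) and Sp100 (0.95). Irf7 was most like Bak1 (0.97), Pon2 (0.96) and Samd9l (0.95), and genes most like Ifit3 included AW112010 (0.94) and Gipc1 (0.93). Xaf1, Oasl2 and Zc3hav1 had looser partners: G2e3, Phf11d and Eif4ebp2 for Xaf1 at 0.87, 0.87 and 0.86, Oxr1, Klhl24 and Gm10648 for Oasl2 at 0.87, 0.86 and 0.86, and Trappc6a, Creb3 and Lrrc61 for Zc3hav1 at 0.93, 0.90 and 0.89.

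The wider list of interferon-stimulated genes, 85 with the members, split in both directions. In undifferentiated spermatogonia 40 reached 30 UMIs, with a median log2 ratio of -0.26 (-0.50 to 0.15) beside 0.05 for all genes; 4 were at least 2-fold higher and 5 at least 2-fold lower in the knockout library, where 5.93% and 3.14% of all genes were. Ifi35, Lgals9 and Ifitm2 were higher, at 32.4 against 15.3 CPM, 15.1 against 7.09 CPM and 12.4 against 5.93 CPM in the control. Ifitm1, which restricts virus entry, was at 2.03 CPM in knockout and 7.09 CPM in control cells, Ifi27 at 11.3 and 25.9 CPM, the GTPase Irgm2 at 5.41 and 11.9 CPM, and the immunoproteasome subunit Psmb9 at 4.96 and 10.2 CPM. In differentiating spermatogonia, with their different clusters, 43 were measured with a median of 0.63 (0.11 to 1.11) beside 0.12. Of these, 18 were at least 2-fold higher and 2 at least 2-fold lower, where 14.4% and 4.27% of all genes were. Counting intervals lay above no change for 12 of the 43 and below it for 2. The class held 1397908 UMIs in the knockout library and 29951820 in the control, so many knockout counts were low. Sertoli and stromal markers were also higher in its knockout cells, as given above, and their part was not tested. In Sertoli cells 58 had a median of 0.12 (-0.15 to 0.21) beside 0.03. Of these, 5 were at least 2-fold higher and 3 at least 2-fold lower, shares near the 8.19% and 4.1% of all genes. Ifitm2 led there by UMIs, at 44.4 CPM in knockout and 14.3 CPM in control cells. Iigp1 was at 1.21 and 0.312 CPM, Slfn9 at 2.14 and 0.589 CPM, Oas1c at 3.81 and 1.63 CPM, and Gbp3 at 0.540 and 1.11 CPM. In macrophages 55 had a median of 0.01 (-0.16 to 0.08) beside -0.01, with 3 higher and 3 lower, where 1.88% of all genes were at least 2-fold higher and 2.22% at least 2-fold lower. Single macrophage genes moved both ways in few cells. Ifitm1 had 42 UMIs in 11 knockout cells and 1 UMI in the control, a ratio of 4.66 (2.67 to 10.6). Slfn9 was at 20.1 CPM in knockout and 7.48 CPM in control macrophages and Parp11 at 17.6 and 8.42 CPM. The GTPase Iigp1 was at 39.3 CPM (47 UMIs in 10 cells) against 97.3 CPM (104 UMIs in 14 cells) in the control, Ifitm3 at 24.3 against 58.9 CPM and Rtp4 at 34.3 against 72.0 CPM.

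**Figure D5:**
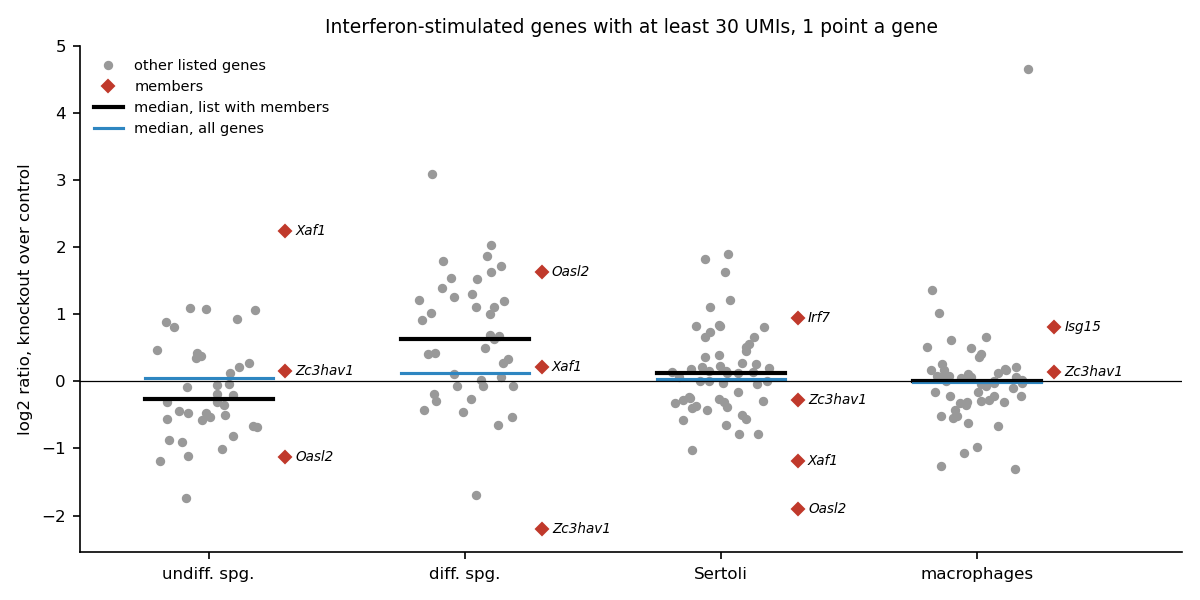
Log2 ratio of knockout over control (vertical axis) for interferon-stimulated genes with at least 30 UMIs in 4 classes; grey points are the other listed genes, diamonds the members, black lines the median of the list with the members and blue lines the median of all genes. In undifferentiated spermatogonia Xaf1, which was selected on its ratio in spermatogonia, stands at 2.25 above every other listed gene, while the list median is -0.26.

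The wider interferon pathway was read from lists of its receptors, sensors and partners. These lists are short, and counts past 2-fold stand beside the shares of all genes. In undifferentiated spermatogonia 5.93% of all genes were at least 2-fold higher and 3.14% at least 2-fold lower in the knockout library. The shares were 8.19% and 4.1% in Sertoli cells, and 1.88% and 2.22% in macrophages. Of 18 measured receptors, kinases and factors none was at least 2-fold higher or lower in undifferentiated spermatogonia, with a median of -0.03. The genes named next from these lists were picked with their values known. Stat2 was at 65.3 CPM in knockout and 60.2 CPM in control cells, Irf9 at 7.44 and 9.15 CPM, Ifnar1 at 68.7 and 64.8 CPM, and Ifnar2 at 39.0 and 30.8 CPM. Of 12 nucleic acid sensors and adaptors none passed 2-fold either, with a median of 0.19, and Cgas, the sensor of cytosolic DNA, was at 23.2 and 19.2 CPM. In Sertoli cells 2 of 15 such genes did, Cgas at 6.43 CPM in knockout and 3.15 CPM in control cells and Ikbke, a kinase that activates interferon regulatory factors, at 1.26 and 0.555 CPM. In macrophages, Socs1, a brake on JAK kinases, was the 1 of 18 receptors, kinases and factors past 2-fold, at 9.20 CPM in the knockout library and 22.5 CPM in the control. Of the 10 partners of ZAP, all measured in undifferentiated spermatogonia with a median of 0.15, none passed 2-fold; Trim25, its E3 ligase partner, was at 34.2 and 28.4 CPM and the nuclease Khnyn at 12.6 and 7.09 CPM. Of 9 genes of XIAP and its partners none passed 2-fold, and Xiap itself was at 57.0 CPM in knockout and 57.2 CPM in control cells. Of the 5 genes of ISG15 conjugation, 2 were measured, Herc6 at 7.21 and 5.54 CPM and Trim25 as above.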

How the data were processed

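Each genotype gave 1 single-cell library of whole testis (10x 3′ chemistry, V3). The deposited UMI counts per gene and barcode come from the authors' run of Cell Ranger, version 7.1.0 per the file headers, against the mm10 build named in the labels, and are unfiltered (112746953 UMIs in the knockout library, 146528736 in the control). Barcodes with at least 1000 UMIs, 500 genes and at most 20% mitochondrial UMIs were kept. Scrublet (scanpy 1.11.5) marked 0 knockout cells by its own threshold, so both libraries took the threshold found in the control, a choice made with the data seen, which removed 275 knockout and 495 control cells. Libraries were clustered together (2000 variable genes without the interferon lists, 30 components, 15 neighbours, Leiden resolution 1, leidenalg 0.10.2). Clusters were named from 15 marker classes by at least 3 markers at 1.5-fold in at least 20% of cells. The immune cluster was split cell by cell by marker UMIs, a step added after seeing the data. Names describe resemblance by transcripts.

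Counts were summed per class. Levels have exact Poisson intervals, shares exact Clopper-Pearson intervals and ratios, with 0.5 added to each count, exact conditional ones (95%, scipy 1.17.1). The ratio intervals were checked on simulated independent Poisson counts, the model they assume. That check therefore says nothing of genes whose UMIs crowd into few cells. Ratios and list medians use genes with at least 30 UMIs in both libraries together, and a count of 0 has a limit of 3 counts. Intervals of list medians were taken from the ranked ratios of the genes and describe the spread between genes. UMIs of 1 cell are not independent, and the intervals of levels, shares and ratios cover counting error only. Nothing was tested. The profile of free RNA came from barcodes holding 10 to 100 UMIs. Named genes were the 7 members, listed genes at or past 2-fold in undifferentiated spermatogonia, Sertoli cells or macrophages (up to 4 a direction), and the 3 genes most like each member, of which 1 is not reported here. Other genes of the pathway lists named in the text were picked with their values known. Members and lists were chosen with earlier results of these data known. GENCODE M21 held 32235 of the identifiers. The results were recomputed under 13 other settings, which changed cell and gene filters, doublets, clustering, naming, free RNA and centring.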

Additional observations from a re-analysis of the deposited data

Results flagged for a closer look

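Several of the 7 genes had ratios of knockout over control whose counting intervals lay on opposite sides of no change in different cell classes. The difference between classes was not tested, since each genotype had 1 library. Oasl2 had log2 ratios of -1.13 in undifferentiated spermatogonia and -1.90 in Sertoli cells, but 1.63 in differentiating spermatogonia and 1.01 in peritubular myoid cells. Within cluster 11 of the differentiating class its ratio was 0.97, and 0.54 (-0.23 to 1.18) without cells of 5 or more Oasl2 UMIs. Xaf1 had 2.25 in undifferentiated spermatogonia and -1.19 in Sertoli cells. Without cells of 5 or more Xaf1 UMIs its ratio in undifferentiated spermatogonia was 0.76 (0.03 to 1.49). Zc3hav1 had -2.21 in differentiating spermatogonia and -0.28 in Sertoli cells, against 0.49 in Leydig cells, 0.61 in peritubular myoid cells and 0.14 in interstitial stromal cells. The ratio of -2.21 rested on 7 knockout UMIs in a class that the libraries filled with different clusters. Without cells of 5 or more Zc3hav1 UMIs the stromal ratio was -0.19 (-0.33 to -0.04) and the Leydig ratio 0.10 (-0.16 to 0.36). Irf7 had 0.95 in Sertoli cells and 0.88 in Leydig cells, against -0.86 in interstitial stromal cells. Within Sertoli clusters that hold cells of both libraries the Irf7 ratio was 0.91 in cluster 3 and -1.88 in cluster 14, and both intervals include no change.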

How the results depend on the processing

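No paired analysis was possible because each genotype had 1 library. Under 13 other settings chosen at the outset, 71 values of the main results stayed within the interval of the main value and 4 moved outside it. For the number of ratios past 2-fold, which has no interval, staying meant a number near the main one. Staying within an interval that includes no change does not fix the sign. The Zc3hav1 ratio in undifferentiated spermatogonia reached -0.13 and the list median in macrophages -0.056. The Xaf1 log2 ratio in undifferentiated spermatogonia, 2.25, lay between 2.20 and 2.66 under them, with 2.66 at a mitochondrial limit of 10%. Under alternatives chosen after seeing the data it was 0.76 without cells of 5 or more Xaf1 UMIs and 0.97 from the shares of cells with a UMI. The Zc3hav1 ratio of 0.15 was -1.19 with spermatogonia of both stages together, also chosen after seeing the data. The median of the interferon list was -0.25 in Sertoli cells with 10% free RNA subtracted, against 0.12, and 0.093 in macrophages with each library clustered alone, against 0.01. Of 29 ratios of the 7 genes, 7 were at least 2-fold, and 4 of 28 at the mitochondrial limit of 10%. Clustering each library alone turned the Zc3hav1 ratio in stromal cells to -0.045, against 0.14. It gave no value in undifferentiated spermatogonia, since the class then fell short of 50 cells in both libraries. That setting and the mitochondrial limit of 10% also gave no value for Oasl2, Xaf1, Zc3hav1 or the list in differentiating spermatogonia. Under further alternatives chosen after seeing the data, the Irf7 ratio in Sertoli cells, 0.95, turned to -1.88 within cluster 14, and the Zc3hav1 ratio in stromal cells to -0.187 without cells of 5 or more UMIs. Of the other values under the 13 settings, 398 stayed within the interval of the main value, 6 moved outside it and 1 turned to the other side of no change. Under the alternatives chosen after seeing the data, 7 values of the main results stayed and 3 moved. Of the other values under those alternatives, 24 stayed, 12 moved and 2 turned. The cause was not tested for any of these. With 1 library a genotype, no spread between animals could be measured.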
